A study of Homo sapiens with 9 samples.

Results

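The 37 chemokine ligands examined here are the human CC, CXC, CX3C and XC chemokines listed for this work, found by their gene symbol in the annotation of the array. Of these, 36 were measured by 1 probe set each, among 20893 transcript clusters tested; CCL13 has no value here. The cells were of L-1236, an established Hodgkin lymphoma line. Their RNA was read on human Clariom S arrays, 1 array for each sample, in 3 groups of 3. Clone g2_1 (genotype label lentiCRIPSPR_v2-LTA_g2) carries a Cas9 cut in the second LTA exon, and clone g3_4 (lentiCRIPSPR_v2-LTA_g3) one in the fourth. The control cells (lentiCRIPSPR_v2, titled wild type) carried the Cas9 vector, and their label names no LTA guide. The LTA product, lymphotoxin alpha, is a cytokine related to TNF. The clones were maintained on conditioned medium of the parental line, and g2_1, g3_4 and control cells then spent 72 h in normal medium up to RNA extraction. Each knockout is 1 clone for its guide. No label tells if the 3 samples of a group were separate cultures. The error behind each p-value is the variation of samples within groups, pooled over the 3 groups and moderated over all transcript clusters. This variation is possibly only technical.

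Chemokines are small secreted proteins that guide the movement of leukocytes by binding G protein-coupled receptors. They are named after the spacing of their first cysteines, and many are encoded side by side, with clusters of CC genes on chromosome 17 and of CXC genes on chromosome 4. Several are switched on by NF-kB, by interferons or by STAT6. Hodgkin lymphoma cells are known for secreting chemokines that draw T cells, eosinophils and other leukocytes around them. In lymphoid organs, lymphotoxin signals are known to sustain chemokines that organise B and T cell zones.

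Signals were deposited on a log2 scale after RMA, which corrects the background, quantile-normalizes the arrays and summarises probes. They have no detection flags. The median of an array was 6.15 to 6.19 in the knockout clones and 6.27 to 6.29 in control cells. Centring the arrays on them moves every log2 change up by 0.11. The median log2 change over all transcript clusters was 0.04 on the deposited scale, and changes are given on that scale. LTA had log2 values of 7.97, 7.53 and 7.11 in g2_1 and of 6.94, 7.25 and 6.61 in g3_4, against 11.58, 11.07 and 11.08 in control cells. The knockout and control values did not overlap, with a log2 change of -4.01 (SE 0.20) in the clones averaged. Of the defining markers of Hodgkin cells, TNFRSF8, which encodes CD30, was at 10.91 to 12.01 over the 9 arrays. The transcription factor gene IRF4 was at 11.76 to 12.05, and the B cell marker MS4A1 at 4.22 to 4.56. MS4A1 does not stand for all 8 measured B cell markers, of which PAX5 fell and EBF1 and BLK rose in both clones. The 12 markers of Hodgkin cells did not all stay level: LTA itself, FCER2 (log2 change -5.47, SE 0.12, in the clones averaged) and BATF3 (-0.40, SE 0.10) fell in both clones, and TNFRSF8 (0.75, SE 0.10) and CD83 (0.54, SE 0.11) rose. CD70 differed between the clones, by 2.35 on the log2 scale higher in g2_1 (adjusted p = 0.0115 in limma). Linear signals of the 12 summed to 16100 to 16900 in g2_1 and 13300 to 13900 in g3_4, against 19100 to 22300 in control cells. The 12 include LTA, the gene that was cut, so its own fall lowers the sum in both clones by design. A sum without LTA was not computed, so the lower sum is no result about the other markers. The part of the sum in the results on the ligands was not tested. A member is said to have fallen or risen where its adjusted p was under 0.05 in limma in both clones with the same sign.

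Among the 36 measured ligands, 6 fell in both clones (16.7%) and 1 rose (2.78%). Over all transcript clusters tested, 6.97% fell and 4.48% rose by the same rule. The ligands that fell were CCL2, CCL3, CCL5, CCL1, CCL22 and CXCL10, and the one that rose was CXCL3. CCL17 and CXCL11 passed as lower in g3_4 and missed the threshold in g2_1. Taken clone by clone, 6 members were lower in g2_1 (against 8.06% of all transcript clusters) and 8 in g3_4 (against 8.16%). The other 27 passed in neither clone. The median log2 change of the 36 was 0.02. It is set by members of low signal, since 22 of the 36 lay at or below the median of the array on all arrays. In 8 members, the 6 that fell and CCL17 and CXCL11, the highest knockout array was below the lowest control array, against 10.6% of all transcript clusters. In 2 members, CXCL3 and CX3CL1, the lowest knockout array was above the highest control array, against 9.7%. Both clones are compared with the same control arrays, so their changes are not independent of each other.

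To separate expressed from low members without detection flags, the 95th percentile of 39 measured genes restricted to other tissues was taken as a limit, at a log2 value of 8.70. CCL5 lay above it on all arrays of all groups, CCL2 and CXCL10 on all control arrays only, and CCL3 on 2 of the 3 control arrays. CCL2, CXCL10 and CCL3 thus met the limit through control arrays alone, which largely fixes that they are lower in the clones. Their falls are therefore no result about expressed members as a set. CCL5, which met the limit in every group, fell in both clones. The limit is strict, because ZP3, SNAP25 and ACTA1 of the restricted genes themselves exceeded it in at least 1 group. Against the median of each array, CCL5, CCL19 and CXCL16 were above on all 9 arrays, and CCL2, CCL3 and CXCL10 on the control arrays alone. By that measure 22 members lay at or below the median on all arrays, with values from 3.78 to 6.12, and 1 of them fell in both clones (CCL1).

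**Figure D1:**
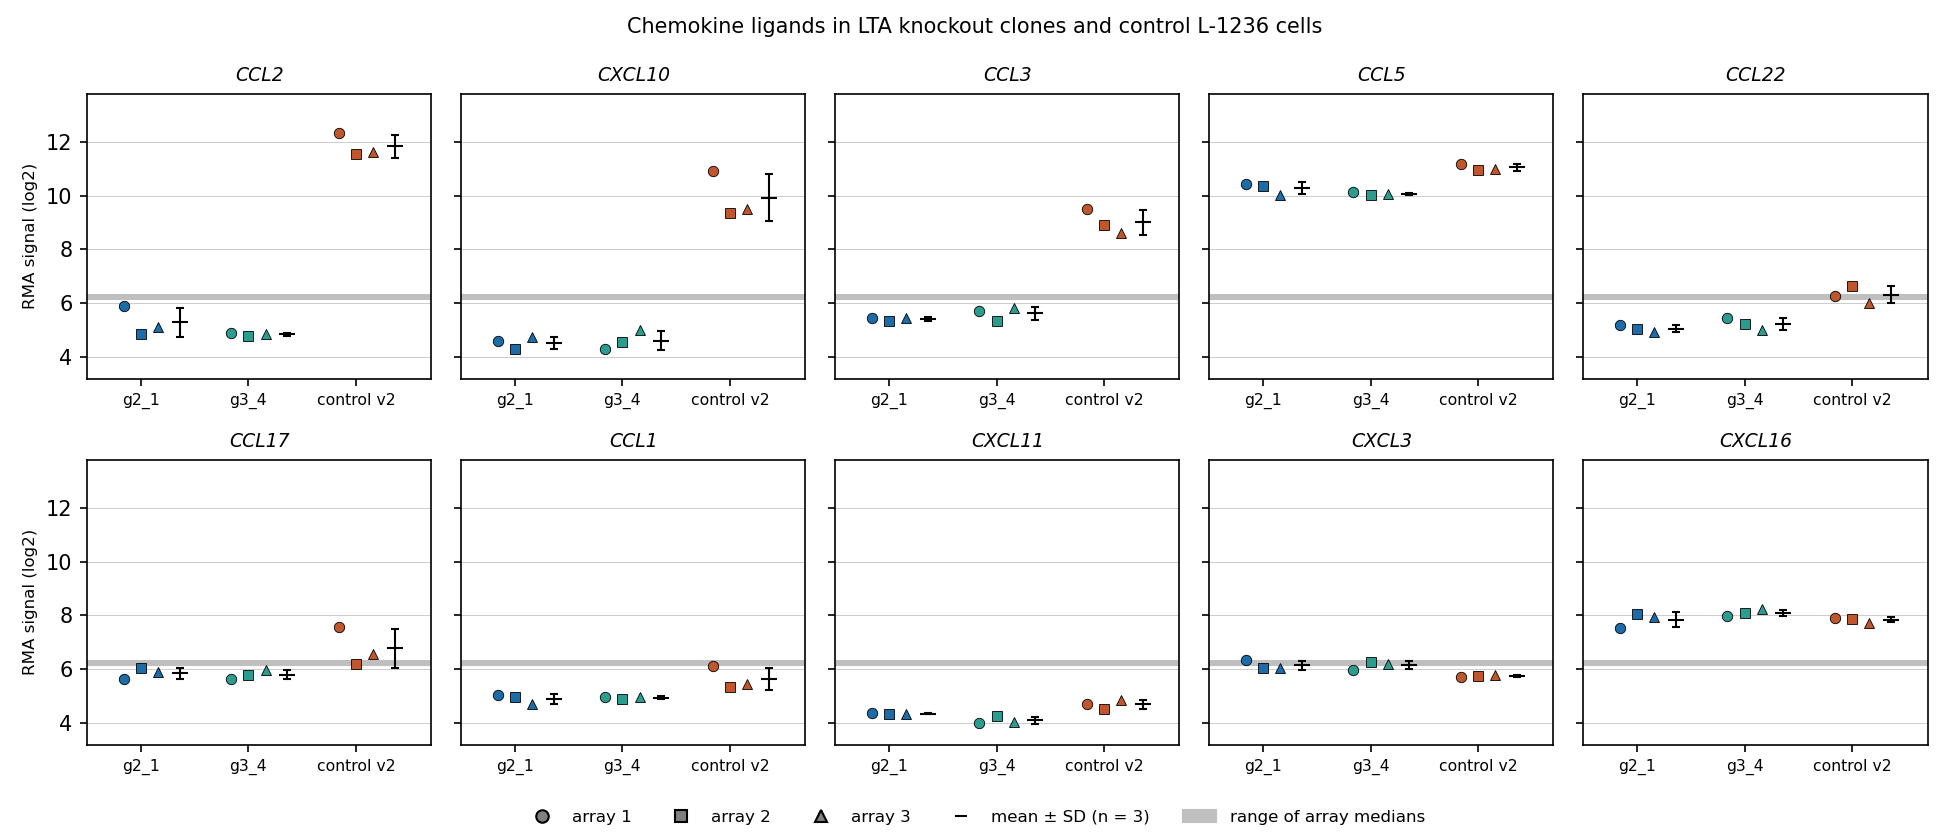
RMA log2 signal (vertical axis) of 10 chemokine ligands on each array of clones g2_1 and g3_4 and of control cells; symbols mark the array number, black dashes with bars the mean ± SD of 3 arrays, and the grey band the range of the array medians. CCL2, CXCL10 and CCL3 lay far above the band on control arrays and below it on all knockout arrays, whereas CCL5 stayed above 10 in every group.

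The monocyte-attracting CC chemokines held the deepest fall. CCL2, which attracts monocytes through the receptor CCR2, had log2 values of 5.91, 4.87 and 5.10 in g2_1 and of 4.88, 4.77 and 4.87 in g3_4, against 12.33, 11.54 and 11.64 in control cells. The knockout arrays were all below the array median and the control arrays were among the high signals of the array. The log2 change was -6.54 (SE 0.26, adjusted p = 4.29e-08 in limma) in g2_1 and -7.00 (SE 0.26, adjusted p = 2.24e-08) in g3_4, or 109-fold lower in the clones averaged (95% confidence interval of the log2 change -7.27 to -6.27). It was the 4th lowest change of 20893. Values near the floor of an array compress fold changes, so such sizes are those of the deposited signals. In these bulk samples, fewer cells that make a transcript and less of it per cell cannot be told apart.

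CCL3, also called MIP-1 alpha, which attracts monocytes and other leukocytes, had log2 values of 5.44, 5.35 and 5.46 in g2_1 and of 5.72, 5.33 and 5.81 in g3_4, against 9.49, 8.92 and 8.60 in control cells. The groups did not overlap, and the clones lay close to each other. CCL3 was 12.0-fold lower in g2_1 (log2 change -3.59, SE 0.20, adjusted p = 6.53e-07 in limma) and 10.4-fold lower in g3_4 (-3.38, SE 0.20, adjusted p = 1.02e-06). CCL3L3, a near-identical copy of CCL3 that is not among the 37, had a log2 change of -1.33 (SE 0.22) in the clones averaged and passed in both. Probe sets of such copies may read each other's RNA. The promoter of CCL3 is shown because it is the deepest fall of a CC chemokine for which the RefSeq table used (GRCh38.p14) held one. It runs from 250 bases before the start of transcription to 50 bases from the start on (chr17:36090094-36090393, minus strand). Promoters of 28 of the 37 members were matched in that table. Capitals in all sequences printed mark, on either strand, a match to the NF-kB consensus or to the core of an interferon-stimulated response element. The consensus was GGG, A or G, any base, A or T, 2 bases that are each C or T, and CC. The core was TTTC, any 2 bases, TTTC. CCL3 had a match to neither in this window. Sites of other letters are not marked, so a promoter without a match may still hold one.

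CCL3 promoter: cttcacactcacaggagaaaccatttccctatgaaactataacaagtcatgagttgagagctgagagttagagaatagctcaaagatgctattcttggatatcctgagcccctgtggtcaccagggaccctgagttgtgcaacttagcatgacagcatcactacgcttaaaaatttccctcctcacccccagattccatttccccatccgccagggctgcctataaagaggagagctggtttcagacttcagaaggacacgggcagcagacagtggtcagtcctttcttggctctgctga

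CCL5, or RANTES, which attracts T cells and monocytes, was the member with high values in every group. Its log2 values were 10.45, 10.37 and 10.04 in g2_1 and 10.12, 10.04 and 10.06 in g3_4, against 11.18, 10.97 and 11.00 in control cells. The groups did not overlap, although the distance was small beside that of CCL2 and CCL3. CCL5 was 1.70-fold lower in g2_1 (log2 change -0.76, SE 0.12, adjusted p = 0.00147 in limma) and 1.97-fold lower in g3_4 (-0.98, SE 0.12, adjusted p = 2.88e-04). CCL7, CCL8, CCL16 and CCL23, the other measured monocyte attractants, had values from 4.20 to 5.49 on all arrays, and none passed in either clone. From such values a fall of these ligands had little room to show. Their log2 changes in the clones averaged lay between 0.05 and 0.17, and their 95% confidence intervals together spanned -0.29 to 0.45.

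The chromosomal positions set these ligands side by side. CCL2, CCL7, CCL11, CCL8, CCL13 and CCL1 follow each other on chromosome 17, and of the 5 measured, the ones at the ends, CCL2 and CCL1, fell, while CCL7, CCL11 and CCL8 between them did not pass. The 20 nearest genes outside the family with a mean above the limit in at least 1 group had a median log2 change of 0.07 around CCL2, with 1 fallen and 2 risen. Around CCL3 the median was 0.17, with 0 fallen and 3 risen. Around CXCL10 on chromosome 4 it was -0.17, with 3 fallen and 0 risen. Over all transcript clusters tested, of any level, 6.97% fell and 4.48% rose. CCL2, CCL3 and CXCL10 were looked up because they had fallen, so a distance from the median of their surroundings was given in advance. A part of the region in these falls was not tested.

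CCL1, which binds CCR8 on T helper cells of type 2 and regulatory T cells, had log2 values of 5.03, 4.95 and 4.69 in g2_1 and of 4.98, 4.89 and 4.97 in g3_4, against 6.12, 5.35 and 5.45 in control cells. These values lay below the array medians in all groups, with control array 1 the highest. The log2 change was -0.75 (SE 0.18, adjusted p = 0.018 in limma) in g2_1 and -0.69 (SE 0.18, adjusted p = 0.0263) in g3_4. The call was lost without g2_1 array 2 (adjusted p = 0.0505) or 3 (0.0777), without g3_4 array 1 (0.0679), 2 (0.0895) or 3 (0.0709), and when each clone was fitted with the control alone (0.0521 and 0.058). CCL18, a T cell attractant made by macrophages and dendritic cells, was at 4.83 to 5.16 and had a log2 change of -0.04 (95% confidence interval -0.24 to 0.16).

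CXCL10, or IP-10, which attracts activated T cells through CXCR3 and is known as a target of interferons, had log2 values of 4.58, 4.29 and 4.73 in g2_1 and of 4.30, 4.55 and 4.99 in g3_4, against 10.92, 9.35 and 9.52 in control cells. The knockout arrays were near the floor, and control array 1 stood above the other control arrays. CXCL10 was 42.1-fold lower in g2_1 (log2 change -5.40, SE 0.35, adjusted p = 1.93e-06 in limma) and 39.9-fold lower in g3_4 (-5.32, SE 0.35, adjusted p = 2.14e-06). With the arrays numbered 1 left out of all groups the log2 change in the clones averaged was -4.80, against -5.36 with them.

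The other CXCR3 ligands lie on either side of CXCL10 on chromosome 4 and did not share the size of its fall. CXCL11 had log2 values of 4.36, 4.34 and 4.32 in g2_1 and of 4.02, 4.25 and 4.04 in g3_4, against 4.69, 4.53 and 4.87 in control cells. The groups did not overlap, but all values were near the floor. Its log2 change was -0.36 (SE 0.11, adjusted p = 0.0577 in limma) in g2_1 and -0.59 (SE 0.11, adjusted p = 0.00454) in g3_4; it passed in g2_1 too without control array 2 (adjusted p = 0.0354) and with a variance trend and robust fit of all arrays (0.0443), and in g2_1 in no other of 16 settings. CXCL9 was at 3.88 to 4.24 on all arrays, with a log2 change of -0.01 (95% confidence interval -0.23 to 0.21). A fall like that of CXCL10 could not have shown from the control values of CXCL11 or CXCL9.

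The promoters of these 3 neighbours are shown because their genes share a receptor and a chromosomal cluster but differed in level and change. They lie at chr4:76023448-76023747 (CXCL10), chr4:76036021-76036320 (CXCL11) and chr4:76007460-76007759 (CXCL9), all on the minus strand of GRCh38.p14. CXCL10 holds an interferon-stimulated response element core 221 to 212 bases before the start and NF-kB consensus matches 177 to 168 and 122 to 113 bases before it. CXCL11 holds an NF-kB consensus match 76 to 67 bases before the start, and CXCL9 a response element core 171 to 162 bases before it. Of 27305 promoters of this length, 5.72% hold the NF-kB consensus and 3.66% the response element core, against 9 and 2 of the 28 member promoters. A match of letters does not show a site that is used.

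CXCL10 promoter: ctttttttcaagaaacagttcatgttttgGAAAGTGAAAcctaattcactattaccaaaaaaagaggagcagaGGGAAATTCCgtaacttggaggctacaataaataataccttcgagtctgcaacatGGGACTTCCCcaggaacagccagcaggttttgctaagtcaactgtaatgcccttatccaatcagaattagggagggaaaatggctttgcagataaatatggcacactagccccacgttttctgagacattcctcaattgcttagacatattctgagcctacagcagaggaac
CXCL11 promoter: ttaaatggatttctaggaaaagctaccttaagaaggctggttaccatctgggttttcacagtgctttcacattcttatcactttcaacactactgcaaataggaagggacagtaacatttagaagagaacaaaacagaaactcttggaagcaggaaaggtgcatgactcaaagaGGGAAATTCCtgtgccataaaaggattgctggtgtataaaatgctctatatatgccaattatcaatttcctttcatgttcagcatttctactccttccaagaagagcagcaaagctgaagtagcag
CXCL9 promoter: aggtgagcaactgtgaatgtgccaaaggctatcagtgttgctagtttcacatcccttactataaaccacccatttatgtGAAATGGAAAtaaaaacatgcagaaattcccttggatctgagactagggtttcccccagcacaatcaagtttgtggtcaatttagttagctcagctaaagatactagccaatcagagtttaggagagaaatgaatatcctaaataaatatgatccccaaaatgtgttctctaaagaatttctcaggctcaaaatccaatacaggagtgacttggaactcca

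The interferon-stimulated genes listed beside CXCL10 moved in both directions. Of 18 measured, 7 fell (38.9%) and 3 rose (16.7%), against 6.97% and 4.48% of all transcript clusters. MX1, an antiviral GTPase, had log2 values of 4.48, 4.72 and 4.91 in g2_1 and of 4.81, 4.73 and 4.56 in g3_4, against 9.54, 7.69 and 7.57 in control cells. IFI44L fell by 2.96 on the log2 scale in the clones averaged, while the guanylate-binding protein gene GBP2 rose by 1.08 and IFI6 by 0.80. Control array 1 was the highest of the 3 control arrays in 16 of these 18 genes, in 5 of the 6 ligands that fell and in 40.8% of all transcript clusters. The part of that array in the falls was measured by leaving it out: without it these 6 ligands still passed in both clones, as did CCL17.

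The CCR4 ligands CCL17 (TARC) and CCL22 (MDC), which attract T helper cells of type 2 and regulatory T cells and are known products of Hodgkin cells, were low on these arrays. CCL22 had log2 values of 5.18, 5.05 and 4.94 in g2_1 and of 5.44, 5.23 and 4.99 in g3_4, against 6.28, 6.65 and 6.02 in control cells. The groups did not overlap, and the control values lay about the array median. CCL22 was 2.39-fold lower in g2_1 (log2 change -1.26, SE 0.17, adjusted p = 4.42e-04 in limma) and 2.14-fold lower in g3_4 (-1.10, SE 0.17, adjusted p = 0.00117). CCL17 had log2 values of 5.63, 6.04 and 5.90 in g2_1 and of 5.64, 5.78 and 5.97 in g3_4, against 7.59, 6.20 and 6.55 in control cells. Control array 1 was again the highest. The log2 change of CCL17 was -0.92 (SE 0.28, adjusted p = 0.0549 in limma) in g2_1 and -0.98 (SE 0.28, adjusted p = 0.0418) in g3_4. Without control array 1 it was smaller but passed in both clones (-0.52, adjusted p = 0.0471, and -0.58, adjusted p = 0.029). Without control array 2 it also passed in both, at -1.21 (adjusted p = 0.0146) and -1.27 (adjusted p = 0.0116). Over 17 alternative settings CCL17 passed in g2_1 in these 2 and in g3_4 in 7. The call in g3_4 was lost on centring the arrays (adjusted p = 0.0542), in the fit with the control alone (0.0923), without the arrays numbered 1 (0.0533), without control array 3 (0.0502) and without any 1 of the 6 knockout arrays (0.0543 to 0.131).

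CCL22, CX3CL1 and CCL17 follow each other on chromosome 16. CX3CL1, or fractalkine, a membrane-bound chemokine, had log2 values of 5.29 to 5.61 and did not pass, with a change of 0.18 (95% confidence interval 0.01 to 0.35 before any adjustment, adjusted p = 0.161 in limma). The 20 genes around CCL22 had a median log2 change of 0.05, with 1 fallen and 5 risen. Of all transcript clusters tested, of any level, 6.97% fell and 4.48% rose. The promoter of CCL22 (chr16:57358533-57358832, plus strand, GRCh38.p14) holds an NF-kB consensus match 185 to 176 bases before the start, and is shown as that of the CCR4 ligand that fell.

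CCL22 promoter: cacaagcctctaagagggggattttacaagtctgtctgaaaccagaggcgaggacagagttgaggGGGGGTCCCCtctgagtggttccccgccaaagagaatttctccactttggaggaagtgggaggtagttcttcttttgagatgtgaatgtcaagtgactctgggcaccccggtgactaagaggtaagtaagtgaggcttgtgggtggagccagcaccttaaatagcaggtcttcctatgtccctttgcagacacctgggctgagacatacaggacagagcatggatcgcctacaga

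The neutrophil-attracting CXC chemokines, which signal through CXCR1 and CXCR2, showed no fall. Their control means were 4.33 (CXCL8) to 6.41 (CXCL2), about or below the array median, so a fall had little room to show. CXCL3 had log2 values of 6.34, 6.04 and 6.04 in g2_1 and of 5.98, 6.28 and 6.21 in g3_4, against 5.71, 5.75 and 5.79 in control cells. All knockout arrays were above all control arrays, by a small distance. The log2 change was 0.39 (SE 0.12, adjusted p = 0.0494 in limma) in g2_1 and 0.41 (SE 0.12, adjusted p = 0.0411) in g3_4, close to the threshold. The rise lost its call in 14 of 18 alternative settings; leaving out control array 1 (adjusted p = 0.0868 in g2_1 and 0.074 in g3_4), 2 (0.108 and 0.0937) or 3 (0.0784 and 0.0674) was enough. CXCL1, CXCL2, CXCL5, CXCL6 and CXCL8, which is interleukin 8, passed in neither clone, at 4.15 to 6.80 with log2 changes of 0.02 to 0.16. CXCL1, CXCL2 and CXCL3 are close copies of each other, so their probe sets may share RNA.

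The promoter of CXCL3 (chr4:74038640-74038939, minus strand, GRCh38.p14) is shown because its NF-kB consensus match is shared by 5 of the 6 genes of this group. The same letters, GGGAATTTCCC, stand 79 to 69 bases before the start in CXCL1 and CXCL3, 78 to 68 bases in CXCL2, 91 to 81 bases in CXCL5 and 90 to 80 bases in CXCL6. These 5 ligands did not fall, but their control means were only 4.63 (CXCL5) to 6.41 (CXCL2), against 9.93 for CXCL10. A fall like that of CXCL10 could not have shown from there. CXCL10 and CCL22, which fell, hold NF-kB consensus matches too, and no promoter was matched for CCL2 and CCL5. A link between such matches and the falls was not tested. Nothing about the use of these letters in L-1236 was measured.

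CXCL3 promoter: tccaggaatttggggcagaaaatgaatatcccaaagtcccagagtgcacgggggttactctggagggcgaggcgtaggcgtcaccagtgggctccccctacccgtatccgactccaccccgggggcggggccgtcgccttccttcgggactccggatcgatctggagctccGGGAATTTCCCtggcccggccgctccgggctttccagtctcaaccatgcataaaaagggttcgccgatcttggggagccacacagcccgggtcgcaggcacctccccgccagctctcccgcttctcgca

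Chemokines that organise lymphoid tissue passed in neither clone. CCL19 and CCL21 bind CCR7, CXCL12 binds CXCR4, and CXCL13 binds CXCR5. Their log2 changes in the clones averaged lay between -0.15 and 0.10, and their 95% confidence intervals together spanned -0.47 to 0.36. CCL19 was at 6.50 to 6.83 on all arrays, CXCL12 at 5.98 to 6.33, CCL21 at 4.32 to 4.87 and CXCL13 at 3.86 to 4.67. The knockout and control arrays overlapped in all of these. Their control means were only 4.37 (CXCL13) to 6.64 (CCL19), so a fall like that of CXCL10 could not have shown. The eotaxins CCL11, CCL24 and CCL26, which draw eosinophils through CCR3, were at 4.13 to 4.97 and had log2 changes of 0.03 to 0.12. The epithelial chemokines CCL20, CCL25, CCL27, CCL28 and CXCL14 had changes of -0.04 to 0.16.

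CXCL16, which is made as a membrane protein and binds CXCR6, was the other member clearly above the array medians in all groups. Its log2 values were 7.53, 8.07 and 7.93 in g2_1 and 7.99, 8.08 and 8.23 in g3_4, against 7.92, 7.87 and 7.73 in control cells. The groups overlapped. The log2 change was 0.13 (95% confidence interval -0.14 to 0.40, adjusted p = 0.55 in limma) in the clones averaged. XCL1 and XCL2, which bind XCR1 on dendritic cells, were at 4.18 to 4.68 with changes of 0.01 and 0.06.

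**Figure D2:**
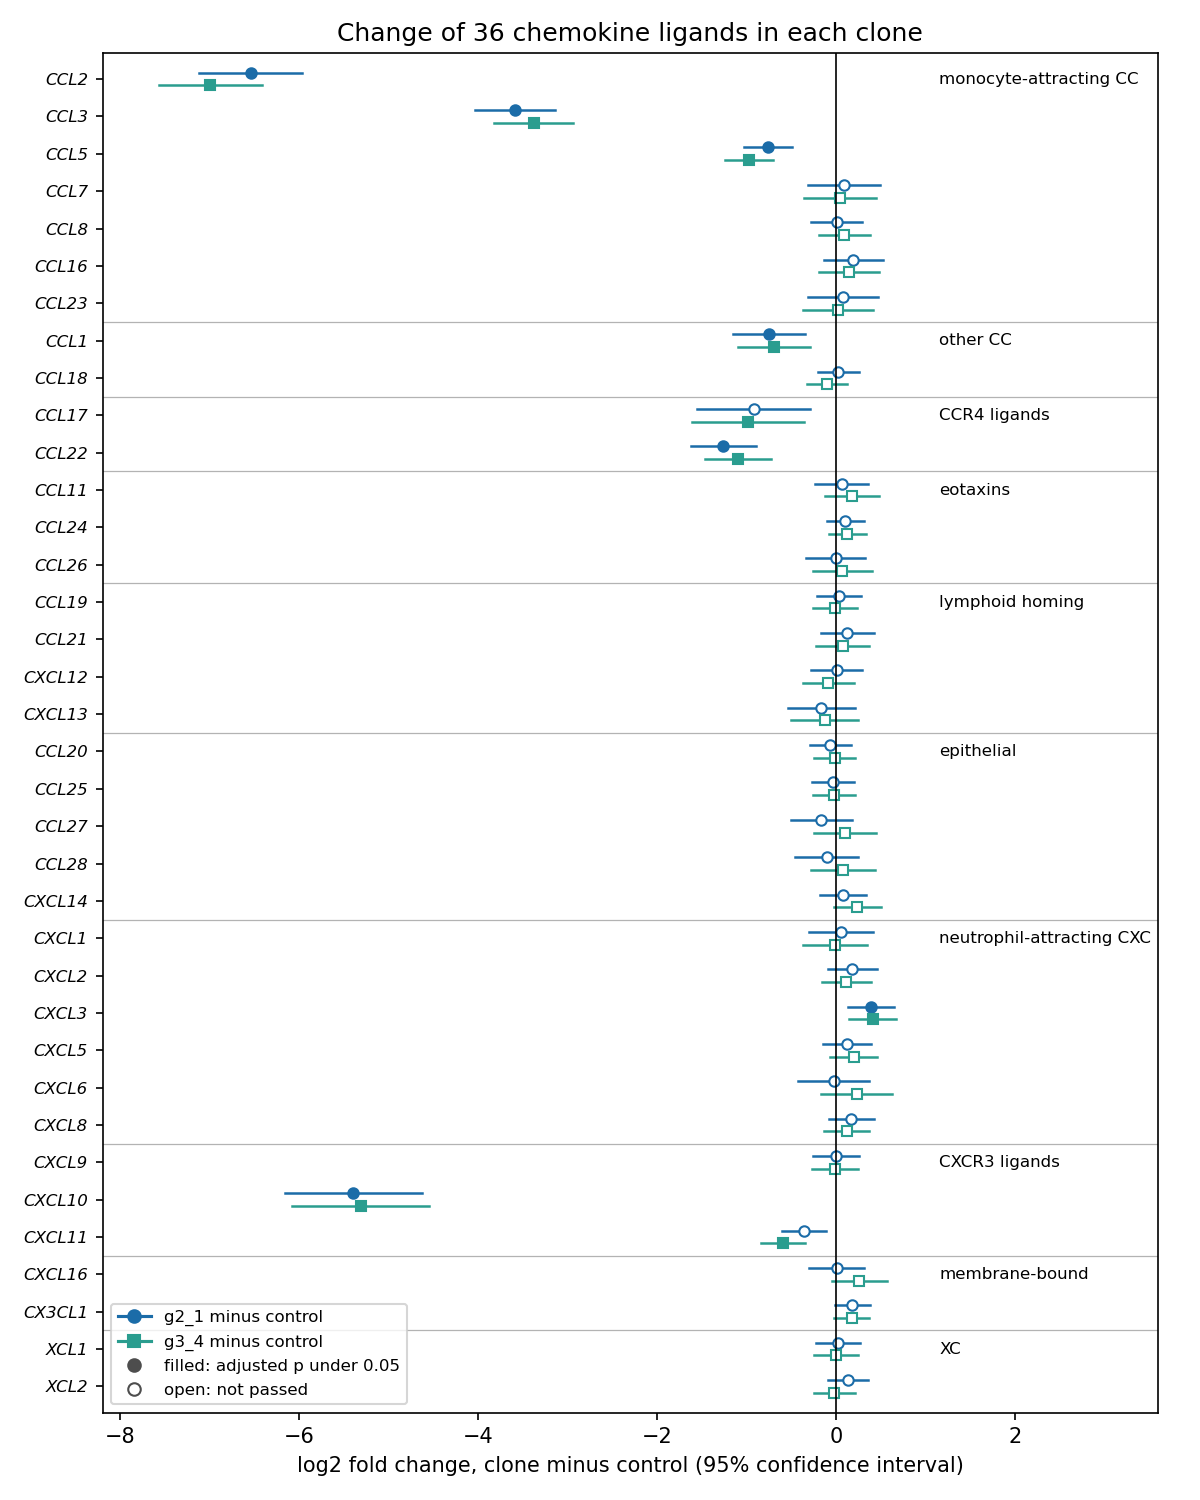
Log2 fold change of each of the 36 measured ligands (rows, grouped by role) in g2_1 and g3_4 against control, with 95% confidence intervals (horizontal axis); filled points passed at an adjusted p under 0.05 in limma. CCL2, CXCL10 and CCL3 stand apart at about -6.8, -5.4 and -3.5 in the clones averaged, and the other members lie between -1.18 and 0.40.

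The clones did not differ from each other in any member at an adjusted p under 0.05 in limma (0 of 36, against 0.0526% of all transcript clusters), and 0 members had an unadjusted p under 0.05. The widest 95% confidence interval of the difference between g2_1 and g3_4 was that of CXCL10, from -0.85 to 0.69 on the log2 scale. That of CCL2 reached highest, from -0.12 to 1.03. Differences of a size inside a member's interval are thus not excluded. The values of CCL2 show the largest spread within a clone, with 5.91 on g2_1 array 1 against 4.87 and 5.10 on the other arrays of g2_1.

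The receptors of these ligands did not change in both clones. Of 21 measured chemokine receptors, 0 fell and 0 rose by the rule in limma, against 6.97% and 4.48% of all transcript clusters. At an adjusted p under 0.05 in 1 clone only, ACKR3 was lower in g2_1 (log2 change -0.86, SE 0.22, adjusted p = 0.0232 in limma). CCR7, the receptor of CCL19 and CCL21, was at 13.17 to 13.39 and CXCR4, the receptor of CXCL12, at 11.15 to 11.74 over all arrays. CCR4, the receptor of CCL17 and CCL22, had log2 values of 4.21, 4.07 and 4.26 in g2_1 and of 4.34, 4.20 and 4.14 in g3_4, against 8.32, 4.55 and 5.54 in control cells. Control array 1 stood far above the other control arrays, and the difference did not pass in g2_1 (adjusted p = 0.0954) or g3_4 (adjusted p = 0.103). CXCR3, the receptor of CXCL10, was at 6.26 to 7.03.

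**Figure D3:**
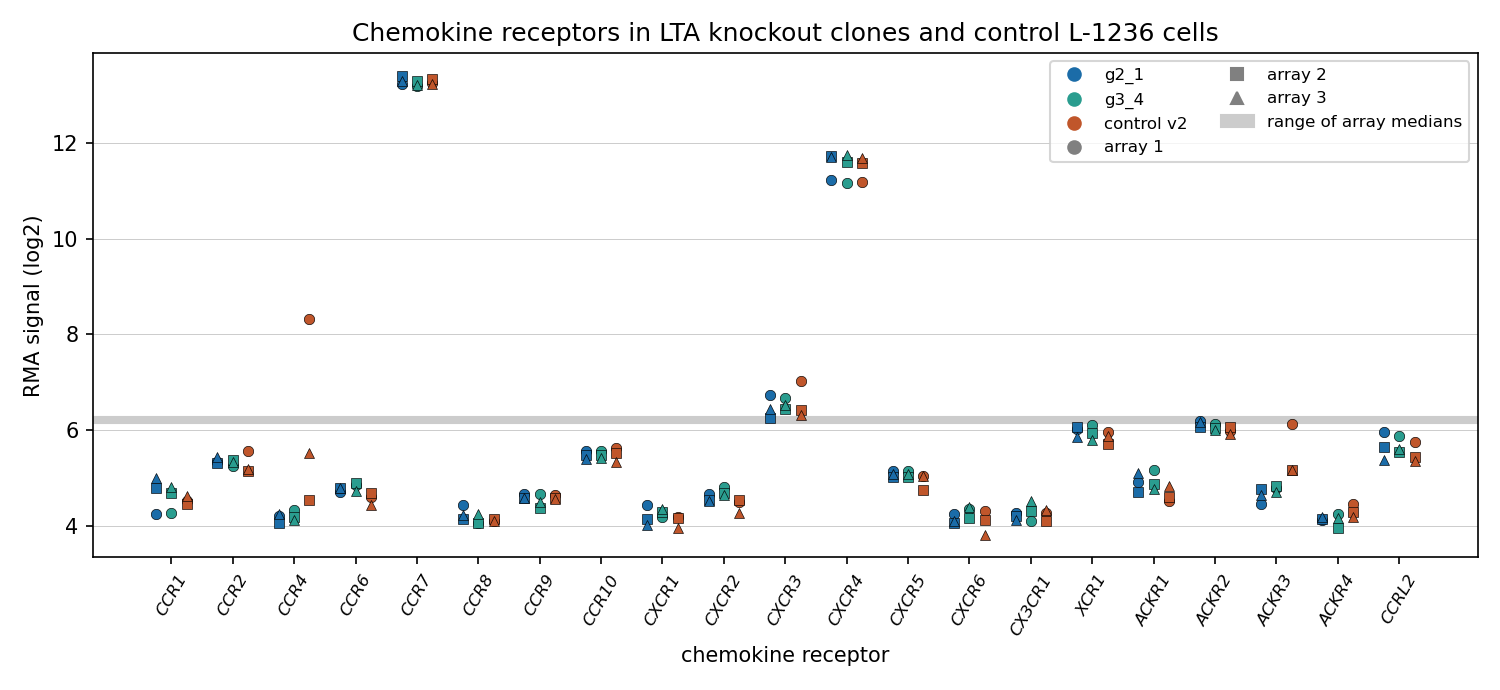
RMA log2 signal (vertical axis) of the 21 measured chemokine receptors (horizontal axis) on each array of g2_1, g3_4 and control cells; the grey band is the range of the array medians. CCR7 and CXCR4 lie far above the band in all groups, and CCR4 is at 8.32 on control array 1 only.

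Among 26 measured transcription factors and inhibitors known to act on chemokine genes, 9 fell (34.6%) and 1 rose (3.85%). Their median log2 change was -0.04. Over all transcript clusters tested, of any level, 6.97% fell and 4.48% rose by the same rule. In the clones averaged, the log2 change was -1.94 (SE 0.14) for REL, an NF-kB subunit, -1.86 (SE 0.28) for the early response factor EGR1, -1.03 (SE 0.16) for STAT6 and -0.92 (SE 0.12) for NFKB1. IRF5 rose, at 0.86 (SE 0.17). Of 12 measured cytokines of inflammation, IL6 (log2 change -5.65, SE 0.09) and CSF1, which sustains macrophages (-2.16, SE 0.23), fell and 0 rose. Of 15 genes that cleave or present chemokines, SULF1, an enzyme that removes sulfate groups from heparan sulfate, fell by 6.88 (SE 0.18), and EXT1, which builds heparan sulfate chains, rose by 0.86 (SE 0.11).

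Markers of other cell types were measured beside the ligands, since several of them are made by myeloid and stromal cells. Of 10 myeloid markers 0 passed, with CD14 at 5.12 to 5.48 and LYZ at 4.08 to 4.50, and their summed linear signal was 430 to 554 in the knockout clones and 440 to 516 in control cells. Of 8 fibroblast markers FAP fell by 1.99 and 0 rose, with sums of 481 to 578 and 498 to 580 on knockout and control arrays. Of 6 endothelial markers PECAM1 fell by 5.41 and the other 5 did not pass. Their sums were 200 to 252 on knockout arrays and 1180 to 2640 on control arrays, while CDH5 was at 4.70 to 5.20 and KDR at 4.09 to 4.28. Of 10 T cell markers, CD2 rose by 1.56 and CD4 by 1.04, and CD3E was at 4.54 to 4.98. The T cell markers summed to 1560 to 1870 on knockout arrays and 627 to 1030 on control arrays. Of 8 B cell markers PAX5 fell by 0.81, and EBF1 rose by 1.25 and BLK by 0.89. The B cell markers summed to 2060 to 2400 on knockout arrays and 1140 to 1810 on control arrays. Of 6 epithelial markers 0 passed. Over all transcript clusters tested, 6.97% fell and 4.48% rose by the same rule. The part of FAP, PECAM1, CD2 and CD4 in the falls of the ligands was not tested.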

How the data were processed

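RNA (250 ng per array) of 3 samples each of clone g2_1, clone g3_4 and control cells was measured on Clariom S arrays. The submitters' processing notes name RMA in Transcriptome Analysis Console 4.0 as the source of the deposited log2 values; the genome build is not given in the sources used here. Tests covered 20893 transcript clusters and left out 555 rows marked as unmapped. Of the tested rows, 17705 carried 1 gene symbol, 3188 none and 0 several. Groups were compared with limma 3.58.1 under R 4.3.3 (1 coefficient per group, all 9 arrays, two-sided), with Benjamini-Hochberg adjustment over all rows and a threshold of 0.05. The fit was tested on simulated data. The number of arrays limits the precision, and no depth applies. Members expressed in a group or passing in a clone are given for every array; the others by range, and of other lists up to 4 genes that passed. The members and lists were chosen with earlier results of these data known. Same-numbered arrays of the clones deviated together (correlations 0.435, 0.191 and 0.310); against control, number 2 did not (0.0426 and 0.0565), so the fit used no pairing. Alternatives covered scaling, weights, filters, the replicate block and leaving out arrays. Promoters came from RefSeq; of several starts the most upstream was used.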

Additional observations from a re-analysis of the deposited data

How the results depend on the processing

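The count of 6 fallen ligands was 4 with a log2 change of at least 1 asked for as well, which leaves out CCL1 and CCL5, and 5 to 8 over the other settings, with 5 to 8 when 1 array was left out; CCL2, CCL3, CCL22 and CXCL10 were in every one of these counts. The count of 1 risen ligand, CXCL3, was 0 with the replicate block, array weights, a variance trend, fits of only the groups compared, a log2 change of at least 1 or without the arrays numbered 1 (a setting chosen after seeing the data), and 0 to 1 when 1 array was left out; the cause was not tested. With the replicate block 6 ligands fell and 0 rose (CXCL3 had an adjusted p of 0.0589 in g2_1 and 0.0509 in g3_4 in limma), and no other call on a count changed; the array numbers pair the clones with each other and with the control only in part. The count of ligands differing between the clones was 0 in all 18 alternatives. LTA stayed between -4.12 and -3.84 (adjusted p at most 2.65e-06) in 16 alternatives. The number of ligands above the expression limit, 3, was 8 against the array medians, 5 at the 90th percentile of the restricted genes and 2 at the 99th, by construction of these limits. None of the 9 ligands that passed in at least 1 clone reversed its direction in any setting run. A choice between several rows of a ligand was not run, since each has 1 row, and fits of only the groups compared give no value for the clones averaged. Without scanner files, signal over background is unknown, which limits what can be said of ligands near the floor.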
